A study of Homo sapiens with 5 samples.

Results

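Ribosome footprints were compared between HEK293T cells labelled QTGAL knockout and HEK293T cells labelled QTMAN knockout, with 2 libraries of each genotype. These 4 libraries of the 5 in the series were taken by genotype label, and every transcript with a coding length entered the comparison. HEK293T is a transformed line from human embryonic kidney, labelled epithelial; treatment, age of culture and clone are not given in the labels. Both genotypes carry a knockout and no library of unmodified cells was analysed here, so every difference is between 2 knockouts. The labels do not say whether libraries of the same genotype came from separate cultures, and p-values therefore measure the spread between libraries, which may be technical.

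Queuosine replaces guanosine at the first anticodon base of 4 kinds of tRNA, those reading codons of aspartate, asparagine, histidine and tyrosine. The enzyme that inserts it has QTRT1 as its catalytic subunit. QTGAL then galactosylates queuosine in tyrosine tRNA, whereas QTMAN mannosylates it in aspartate tRNA. The comparison sets loss of the galactose enzyme against loss of the mannose enzyme, the question being which coding sequences carry more or fewer ribosomes in either case. Footprints reflect both the amount of an mRNA and its translation, and with no RNA levels analysed here these cannot be told apart; in a bulk library, fewer cells and less RNA per cell cannot be told apart either.

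The deposited tables name transcripts by identifier only. A gene was assigned where a protein length, recalled from general knowledge and not read from a file, met the coding length of a transcript at the place in the tables where the gene's position in the human genome puts it. Of 825 genes tried, 93.0% were matched in this way, against 2.3% when the expected places were moved by 3000 rows. The expected places were fitted to the lengths of these same genes and were not refitted after the move. Settings were also adjusted while watching the match rate, so these percentages do not give an error rate for the names. Every gene name below is such an inference, the values are those of the one transcript matched, and gene positions are those of RefSeq on GRCh38.p14. The genes tried included many near transcripts already seen to differ and many on chromosome 17, so matched genes are not a sample of all genes.

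The 4 libraries held between 12002044 and 25291912 footprints. Levels are given in CPM, footprint counts per transcript scaled by the TMM-adjusted library total. Across tested transcripts, log2 CPM correlated at 0.970 between the QTGAL-labelled libraries and 0.977 between the QTMAN-labelled libraries, while pairs from different genotypes ran from 0.964 to 0.976. Libraries of different genotype were therefore about as alike as libraries of the same genotype.

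The knocked-out genes were examined first. QTGAL (chr17:82942149-83051770, transcript uc002kgg.1) had 0.63 and 0.76 CPM in the QTGAL-labelled libraries and 2.73 and 1.87 CPM in the QTMAN-labelled libraries. The groups did not overlap, and QTGAL was lower in the cells labelled as lacking it by 1.74 ± 0.35 (SE) on the log2 scale, with an edgeR adjusted p of 0.57. These values rest on 15, 9, 52 and 46 footprints.

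QTMAN (chr2:143938068-144333069, transcript uc061ofh.1) went against its label in 1 library. It had 0.54 and 0.76 CPM in the QTGAL-labelled libraries, 0.61 CPM in the QTMAN-labelled replicate 2, and 7.87 CPM in the QTMAN-labelled replicate 1. Replicate 1 held 150 footprints of this transcript, where the other 3 libraries held 13, 9 and 15. A neighbouring shorter transcript, uc061ofj.1, had 4 footprints in that library against 12, 8 and 10 in the others, so the excess footprints were not among those counted for it. With these transcripts going both ways, the footprints of QTMAN do not check the QTMAN labels, and "QTMAN-labelled" below means the label alone.

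The other genes of the queuosine pathway differed less. QNG1, a queuosine nucleoside hydrolase that salvages the base queuine, had 11.3 and 13.2 CPM in the QTGAL-labelled libraries and 9.13 and 8.46 CPM in the QTMAN-labelled libraries, a log2 difference of 0.47 ± 0.16 (edgeR adjusted p = 0.72). QTRT1 had 12.9 and 8.27 CPM against 10.02 and 10.6 CPM. Its partner subunit QTRT2 had 16.7 and 13.7 CPM against 15.4 and 17.0 CPM. SLC35F2, a transporter that takes up queuine, had 9.41 and 11.6 CPM against 11.49 and 8.66 CPM, so for QTRT1, QTRT2 and SLC35F2 the genotypes overlapped.

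The synthetases that charge the queuosine tRNAs showed no transcript past the test among the 7 matched of 8. YARS1, the cytosolic enzyme for tyrosine, had 108.7 and 141.2 CPM in the QTGAL-labelled libraries and 101.6 and 121.2 CPM in the QTMAN-labelled libraries. The genotypes overlapped for YARS1. HARS1, for histidine, lay lower and NARS2, for mitochondrial asparagine, lay higher in both QTGAL-labelled libraries, by -0.10 ± 0.12 and 0.20 ± 0.16 on the log2 scale. HARS2 and YARS2 overlapped between the genotypes, with log2 differences of 0.02 and 0.07.

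No transcript of 58747 tested passed an adjusted p of 0.05 in edgeR's quasi-likelihood test, and the lowest adjusted p was 0.37. At an unadjusted p of 0.05, 3890 transcripts passed, 3.38% of all tested higher and 3.24% lower in the QTGAL-labelled libraries, and DESeq2 called 6 (0.0102%). Without a filter on low counts edgeR called 275, and leaving out 1 library called between 11 (without QTGAL-labelled replicate 1) and 481 (without QTMAN-labelled replicate 2), with 70 called without QTGAL-labelled replicate 2.

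Both QTGAL-labelled libraries lay above both QTMAN-labelled libraries for 10932 transcripts (18.6% of those tested), and below both for 10688 (18.2%). Over all tested transcripts, separated or not, the most extreme log2 differences were -5.004 and 4.54, in transcripts with no assigned gene. Those of matched genes ran from -3.16 to 0.92. Most of the separations were small, with a median fold between genotype means of 1.25. A fold of 1.5 or more was reached by 2041 transcripts higher (3.47%) and 2090 lower (3.56%) in the QTGAL-labelled libraries. Among transcripts at 500 CPM or more, 64 lay lower (42.4%) and 21 higher (13.9%) in the QTGAL-labelled libraries, whereas at 5 to 50 CPM 4004 lay lower and 4564 higher of 22542. Isoforms share footprints, so neighbouring rows of like density were also reduced to the 1 with most counts: of 8824 such transcripts, 20.7% lay higher and 16.5% lower, with 1.94% higher and 1.29% lower by 1.5-fold or more. The balance went with the scaling: scaled on these transcripts alone, 1660 lay higher and 1619 lower. Over all tested transcripts it was 12251 higher and 9230 lower with total counts, and 10002 higher and 11354 lower after centring on neighbouring transcripts.

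**Figure D1:**
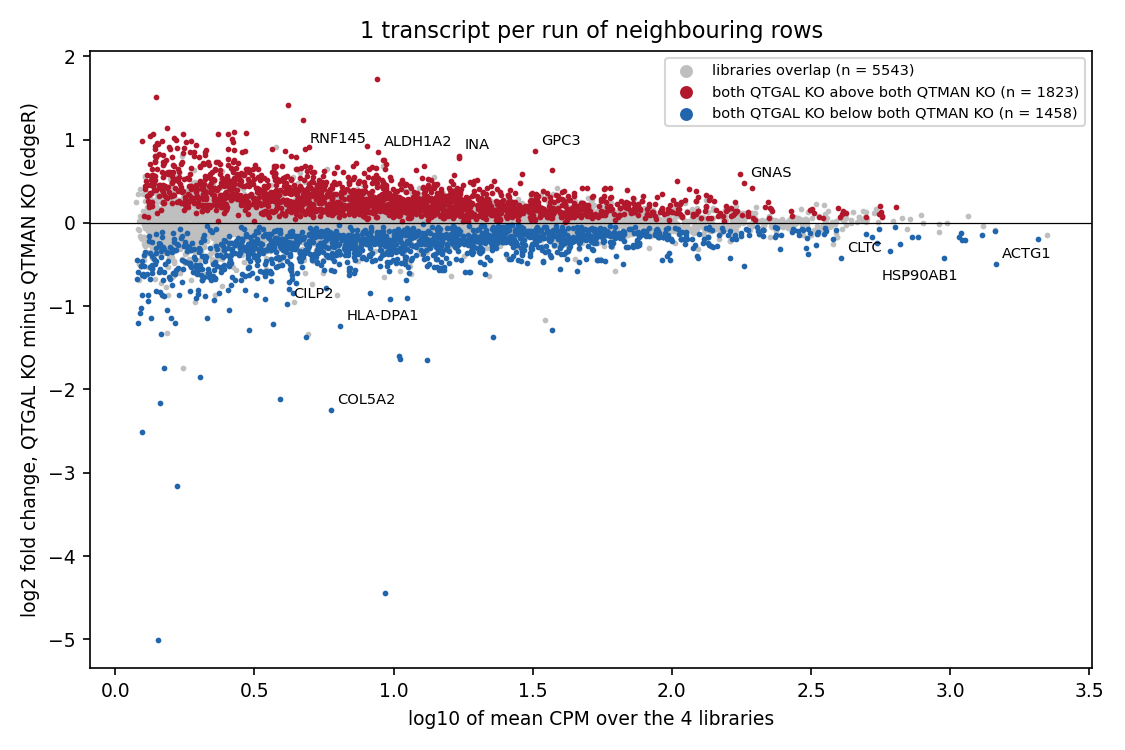
Each point is 1 transcript per run of neighbouring rows; the horizontal axis gives log10 of mean CPM over the 4 libraries and the vertical axis the edgeR log2 fold change of QTGAL over QTMAN knockout. Red points (20.7%) have both QTGAL knockout libraries above both QTMAN knockout libraries, blue points (16.5%) have them below, and the spread narrows as the level rises.

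The 24 genes described next, 12 in each direction, had at least 5 CPM in the higher genotype, put both libraries of one genotype beyond both of the other, and had the smallest unadjusted p. That choice used the comparison itself, so their separation is a description. Their edgeR adjusted p ran from 0.37 to 0.59 and none passed. Their folds between genotype means ran from 1.33 to 4.204 among the lower genes and from 1.39 to 1.87 among the higher genes.

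COL5A2 (chr2:189031898-189441111, transcript uc002uqk.4), a chain of the fibril-forming collagen V, had the largest fold among these genes. It had 1.13 and 3.46 CPM in the QTGAL-labelled libraries and 9.81 and 9.48 CPM in the QTMAN-labelled libraries. The QTMAN-labelled libraries were close to each other, and the QTGAL-labelled ones lay further apart. The log2 difference of -2.25 ± 0.34 was -1.48 without QTGAL-labelled replicate 1 and -3.09 without replicate 2 (edgeR adjusted p = 0.37 with all 4).

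HLA-DPA1, an MHC class II chain, had 4.27 and 3.21 CPM in the QTGAL-labelled libraries against 11.4 and 6.79 CPM, a log2 difference of -1.24 ± 0.26. CILP2, a cartilage matrix protein, had 2.59 and 3.04 CPM against 5.77 and 5.17 CPM, a log2 difference of -0.97 ± 0.22. These genes stood at low levels, and their genotype means differed by 2.44-fold for HLA-DPA1 and 1.94-fold for CILP2.

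Of the 12 lower genes, 3 encode actins or an actin-like protein. ACTG1 (chr17:81509971-81512799), cytoplasmic gamma actin, had 1164.1 and 1259.0 CPM against 1577.6 and 1842.5 CPM, a log2 difference of -0.50 ± 0.10. ACTC1, cardiac alpha actin, had 8.12 and 8.10 CPM against 14.01 and 12.3 CPM. POTEE, which carries an actin-like domain, had 79.2 and 87.0 CPM against 113.1 and 113.04 CPM. Actin coding sequences are near copies of each other, so counts of ACTC1 and POTEE may hold ACTG1 footprints and the 3 are not independent. ACTB, cytoplasmic beta actin, overlapped between the genotypes, with 1321.3 and 1491.1 CPM against 1443.02 and 1530.1 CPM.

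HSP90AB1, the constitutive cytosolic HSP90, had 823.5 and 806.0 CPM in the QTGAL-labelled libraries and 1042.6 and 1131.4 CPM in the QTMAN-labelled libraries. CLTC, the clathrin heavy chain, had 333.9 and 360.7 CPM against 488.7 and 441.9 CPM. ARHGDIA had 45.7 and 48.8 CPM against 75.1 and 64.3 CPM. These gaps were 1.33 to 1.48-fold between means, with replicates of each genotype closer to each other than to the other genotype.

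ID2, an inhibitor of basic helix-loop-helix transcription factors, had 31.7 and 32.5 CPM in the QTGAL-labelled libraries and 49.5 and 44.9 CPM in the QTMAN-labelled ones. PLTP, which transfers phospholipids between lipoproteins, had 38.8 and 34.4 CPM against 51.04 and 58.8 CPM. TRO, encoding the adhesion protein trophinin, had 15.7 and 18.2 CPM against 27.2 and 24.4 CPM. All 3 lay near 1.5-fold lower, with log2 differences of -0.56 ± 0.12, -0.58 ± 0.12 and -0.61 ± 0.14.

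In the other direction, ALDH1A2, which makes retinoic acid from retinal, had 12.5 and 9.95 CPM in the QTGAL-labelled libraries and 6.09 and 6.51 CPM in the QTMAN-labelled libraries, a log2 difference of 0.85 ± 0.17. SOX4, a developmental transcription factor, had 19.1 and 24.4 CPM against 11.0 and 14.1 CPM, a difference of 0.78 ± 0.17. INA, the neuronal intermediate filament protein internexin, had 23.6 and 19.9 CPM against 14.7 and 10.4 CPM, a difference of 0.81 ± 0.18. In each of the 3 the lower QTGAL-labelled library was at least 1.35 times the higher QTMAN-labelled one.

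Of the other genes higher in the QTGAL-labelled libraries, GPC3, a heparan sulfate proteoglycan of the cell surface, had 29.9 and 53.4 CPM against 23.2 and 22.0 CPM, and QTGAL-labelled replicate 2 carried most of its difference of 0.86 ± 0.21. WASF1, an activator of actin branching, had 10.8 and 12.3 CPM against 6.35 and 7.20 CPM. GNAS, matched by the length of its extra-large G protein form, had 190.2 and 231.2 CPM against 144.5 and 158.7 CPM, and the shorter forms of the gene share much of its coding sequence. CAPN2, the catalytic subunit of a calcium-dependent protease, had 34.5 and 42.8 CPM against 24.0 and 27.7 CPM. MARK3, a microtubule affinity regulating kinase, had 10.5 and 10.1 CPM against 5.98 and 6.92 CPM, and DGKZ, which phosphorylates diacylglycerol, had 8.41 and 8.44 CPM against 4.25 and 5.78 CPM. For MARK3 and DGKZ the QTGAL-labelled replicates nearly coincided.

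RNF145, an ER ubiquitin ligase, had 5.44 and 6.92 CPM in the QTGAL-labelled libraries and 3.36 and 3.25 CPM in the QTMAN-labelled libraries, the largest fold in this direction at 1.87. TMT1A, a thiol methyltransferase of the ER, had 12.6 and 10.5 CPM against 7.61 and 6.26 CPM. SREBF2, the transcription factor that drives cholesterol synthesis genes, had 30.0 and 39.6 CPM against 23.4 and 22.5 CPM, a log2 difference of 0.59 ± 0.15 that was 0.38 without QTGAL-labelled replicate 2.

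**Figure D2:**
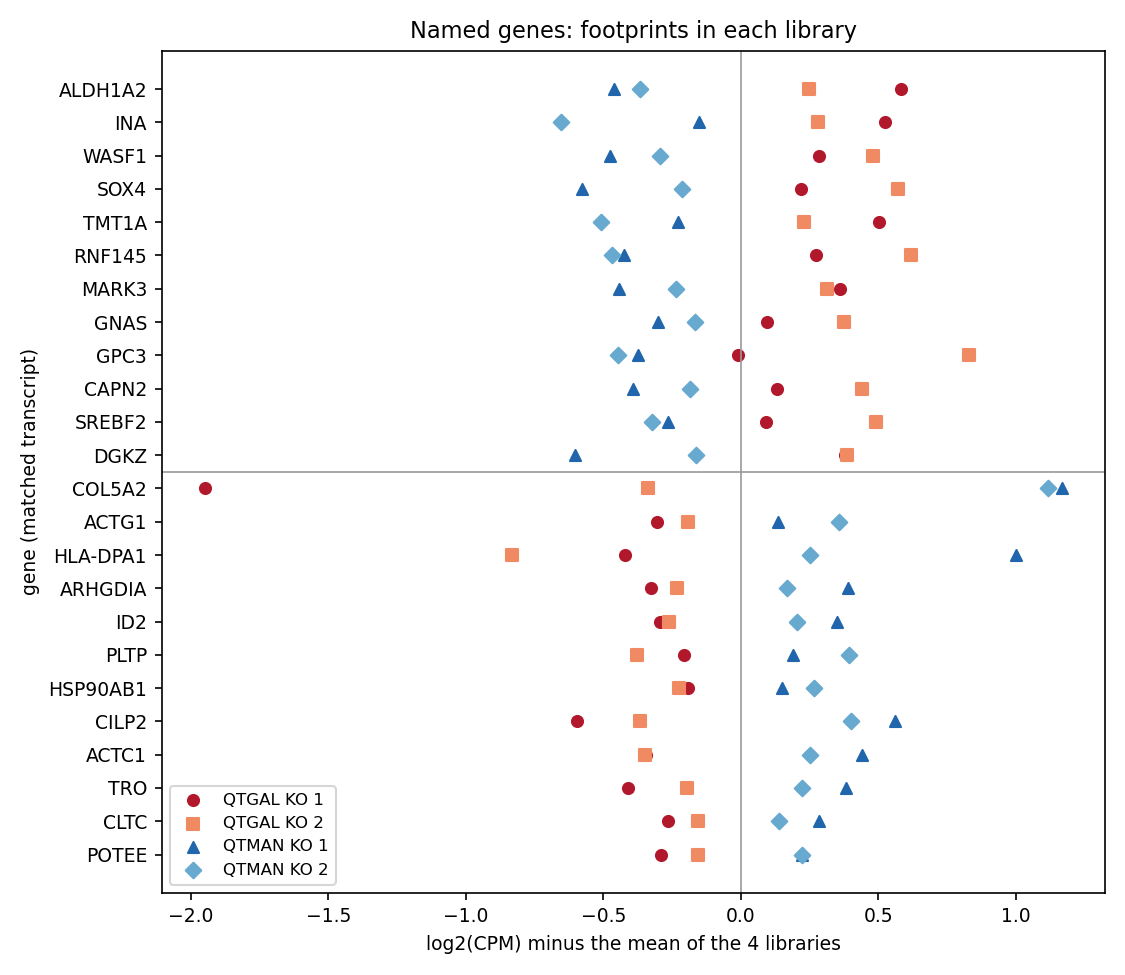
Each row is 1 of the 24 named genes, and each point gives a library's log2 CPM minus the mean of the 4 libraries; circles and squares are the QTGAL knockout libraries, triangles and diamonds the QTMAN knockout libraries. Points of the genotypes do not overlap in any row because the genes were chosen so, and COL5A2 and GPC3 show replicates far apart within the QTGAL knockout.

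Genes of cholesterol synthesis and uptake lay higher in the QTGAL-labelled libraries. Of 20 tested members, 12 (60%) had both QTGAL-labelled libraries above both QTMAN-labelled ones. The share was 18.6% of all tested transcripts and 17.2% of all tested matched genes. No member lay below both. None passed the test, and the median log2 difference was 0.23 where that of all tested transcripts was 0.00. SQLE, squalene epoxidase, had 41.0 and 49.8 CPM against 21.0 and 36.8 CPM. FDFT1, squalene synthase, had 62.1 and 68.3 CPM against 42.1 and 55.7 CPM. In both the QTMAN-labelled replicate 1 stood lowest. Across the list the median was 0.12 without QTMAN-labelled replicate 1 and 0.36 without replicate 2, so 1 library moved it by more than 1.5 times. INSIG1, which holds back the pathway's activation, and LSS, lanosterol synthase, overlapped between the genotypes.

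Collagens and matrix genes had a median on the other side. Of 28 tested members, 14 (50%) had both QTGAL-labelled libraries below both QTMAN-labelled ones. The share was 18.2% of all tested transcripts but 32.2% of all tested matched genes, to which the members belong. In this list 1 member lay above, none passed the test, and the median log2 difference was -0.20. LAMB1, a laminin chain, had 25.1 and 25.4 CPM against 36.6 and 33.6 CPM. COL6A1 had 27.3 and 30.7 CPM against 36.2 and 43.6 CPM. SPARC, a collagen-binding matrix protein, had 25.3 and 19.5 CPM against 31.4 and 29.7 CPM. LAMA4, another laminin chain, was the member on the other side, with 16.4 and 12.8 CPM against 9.76 and 9.31 CPM. COL2A1 had 10.8 and 1.86 CPM against 14.5 and 11.7 CPM, so its QTGAL-labelled replicates differed more than the genotypes did.

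The sum of the fibroblast markers lay on the same side as the matrix genes. All 6 markers were matched and 3 had enough counts to be tested. COL1A1, COL1A2 and COL3A1 are on both lists. The 6 markers summed to 4.08 to 5.28 CPM in the QTGAL-labelled libraries and 6.68 to 12.2 CPM in the QTMAN-labelled libraries. These sums were scaled by the library total without TMM. COL1A1 stood highest of the 6, with 3.72 and 2.95 CPM against 6.45 and 4.80 CPM, and lies on the distal part of chromosome 17 described below. COL3A1 overlapped between the genotypes, with 0.67 and 0.76 CPM against 2.89 and 0.73 CPM. LUM had 0.71 and 0.34 CPM against 2.52 and 1.14 CPM, on as few as 4 footprints. The part of other cells in the matrix genes was not tested.

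**Figure D3:**
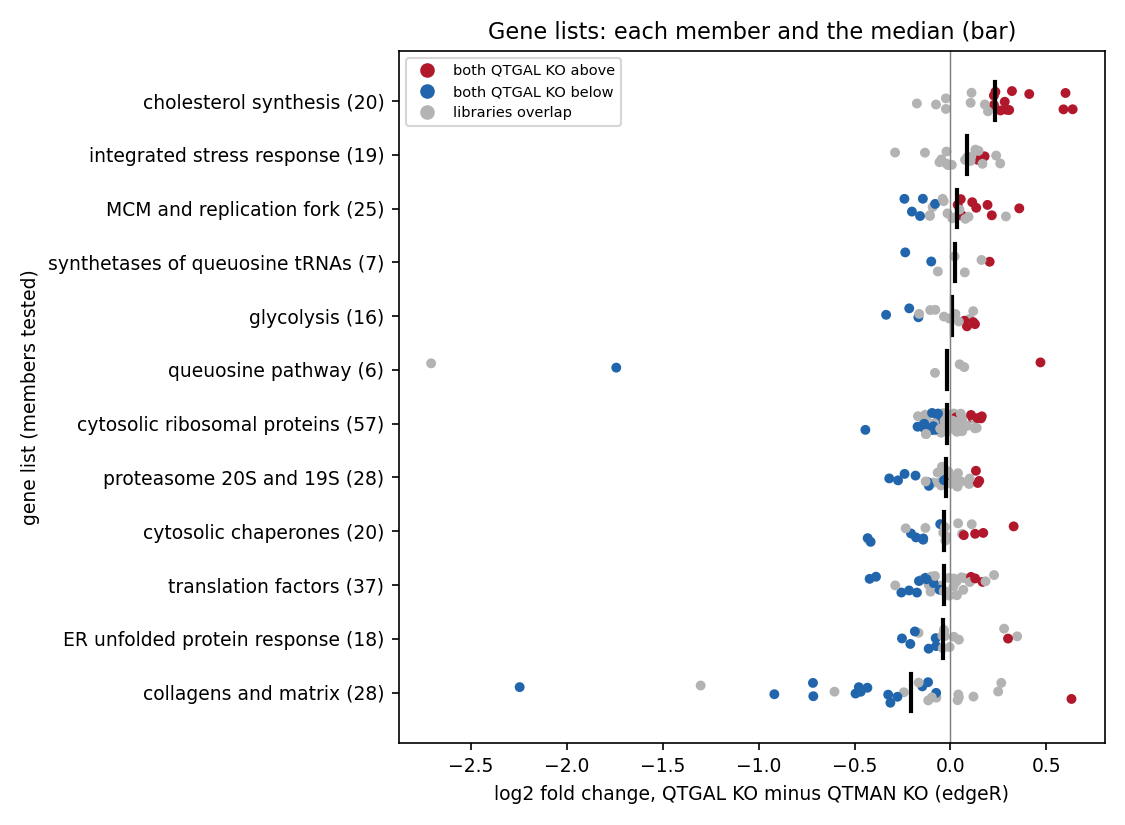
Each point is the edgeR log2 fold change of QTGAL over QTMAN knockout for 1 gene, grouped by list with the number of tested members; bars are medians. Cholesterol synthesis has the highest median (0.23) and collagens and matrix the lowest (-0.20), while the other medians lie between.

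The remaining lists had medians close to that of all transcripts. Their shares stand beside 18.6% higher and 18.2% lower among all tested transcripts. Among all 693 tested matched genes, to which list members belong, 17.2% lay higher and 32.2% lower. Outside the distal part of chromosome 17 these were 20.8% and 23.7%. Against matched genes, most of the lower shares below are near or under the common share. Cytosolic ribosomal proteins lay higher in 7 (12.3%), lower in 14 (24.6%) and overlapped in 36 of 57 tested members, with a median log2 difference of -0.02. Translation factors lay higher in 3 (8.11%) and lower in 10 (27.0%) of 37, with a median of -0.03; EIF1, which selects start codons, had 125.8 and 150.4 CPM against 188.6 and 180.7 CPM, and EIF4A1, an initiation helicase, had 622.2 and 583.4 CPM against 691.0 and 748.6 CPM. Proteasome subunits lay higher in 3 (10.7%) and lower in 7 (25%) of 28, with a median of -0.02. The lower ones include PSMC5 and PSMD12, both on the distal part of chromosome 17 described below.

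Of 19 tested members of the integrated stress response, 2 lay higher (10.5%) and none lower, with a median of 0.09. That median was 0.28 without QTGAL-labelled replicate 1, 0.18 without QTMAN-labelled replicate 2, -0.08 without QTGAL-labelled replicate 2 and -0.04 without QTMAN-labelled replicate 1, so its sign rests on single libraries. ATF4, the central transcription factor of this response, had 332.7 and 368.6 CPM in the QTGAL-labelled libraries and 309.8 and 324.6 CPM in the QTMAN-labelled ones. ER unfolded protein response genes lay higher in 1 (5.56%) and lower in 6 (33.3%) of 18, with a median of -0.04, and XBP1, a transcription factor of that response, had 18.4 and 21.8 CPM against 17.3 and 15.2 CPM. Cytosolic chaperones lay higher in 4 (20%) and lower in 7 (35%) of 20, with HSP90AA1 at 1031.5 and 1061.9 CPM against 1234.1 and 1180.1 CPM. HSPE1, the mitochondrial co-chaperonin, lay on the other side with 157.03 and 134.7 CPM against 104.6 and 127.8 CPM.

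Glycolysis genes lay higher in 4 (25%) and lower in 3 (18.8%) of 16, with a median of 0.01; HK2, a hexokinase, had 28.7 and 22.4 CPM against 31.0 and 33.9 CPM. Replication genes lay higher in 8 (32%) and lower in 5 (20%) of 25, with a median of 0.03, led by LIG1, the replicative DNA ligase, at 25.8 and 24.8 CPM against 17.8 and 21.6 CPM. None of the members of these lists passed the test. With 1 library left out the medians crossed 0 for ribosomal proteins (-0.06 to 0.04), chaperones (-0.09 to 0.01) and glycolysis (-0.08 to 0.09), and barely for proteasome subunits and replication genes.

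Position in the genome went with direction on chromosome 17. From 50 Mb to its end, both QTGAL-labelled libraries lay below both QTMAN-labelled libraries for 921 of 1632 tested transcripts (56.4%). For 37 they lay above both. Elsewhere 9767 of 57115 tested transcripts lay below (17.1%) and 10895 above. With 1 transcript per run, where 16.5% of all lay lower and 20.7% higher, it was 122 below (63.9%) and 0 above of 191. The median log2 difference of these 191 was -0.27, or 1.21-fold. Of 131 tested matched genes there, 90 lay lower (68.7%), against 23.7% of matched genes elsewhere.

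The medians over these 191 transcripts were -0.19 and -0.08 in the QTGAL-labelled libraries and 0.13 and 0.15 in the QTMAN-labelled libraries relative to the mean of the 4. Along the chromosome, the median was -0.08 from 40 to 50 Mb, with 23.8% of transcripts lower, and -0.25 from 50 to 60 Mb, with 29 of 41 lower. The last bin, from 80 Mb, which holds the QTGAL gene, had a median of -0.31.

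Among genes of this stretch, KPNA2, a nuclear import receptor, had 264.4 and 274.0 CPM in the QTGAL-labelled libraries against 356.99 and 339.1 CPM. SUMO2, a ubiquitin-like modifier, had 102.7 and 109.7 CPM against 139.7 and 140.5 CPM. BIRC5, the mitotic protein survivin, had 44.6 and 38.5 CPM against 56.2 and 56.6 CPM. H3-3B, which encodes the replication-independent histone H3.3, had 95.8 and 116.3 CPM against 144.1 and 140.1 CPM, though near-identical H3 genes may share its footprints. Their log2 differences ran from -0.37 to -0.44 and each separated the genotypes without passing the test.

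Of the named genes, ACTG1, ARHGDIA and CLTC lie in this stretch. After each library was centred on its neighbouring transcripts, their log2 differences were -0.22, -0.31 and -0.14, in place of -0.50, -0.56 and -0.42. COL5A2 and HSP90AB1, on other chromosomes, were at -2.29 and -0.44 after the same centring. The part of this shift in the values of genes that lie there was not tested beyond that centring.

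**Figure D4:**
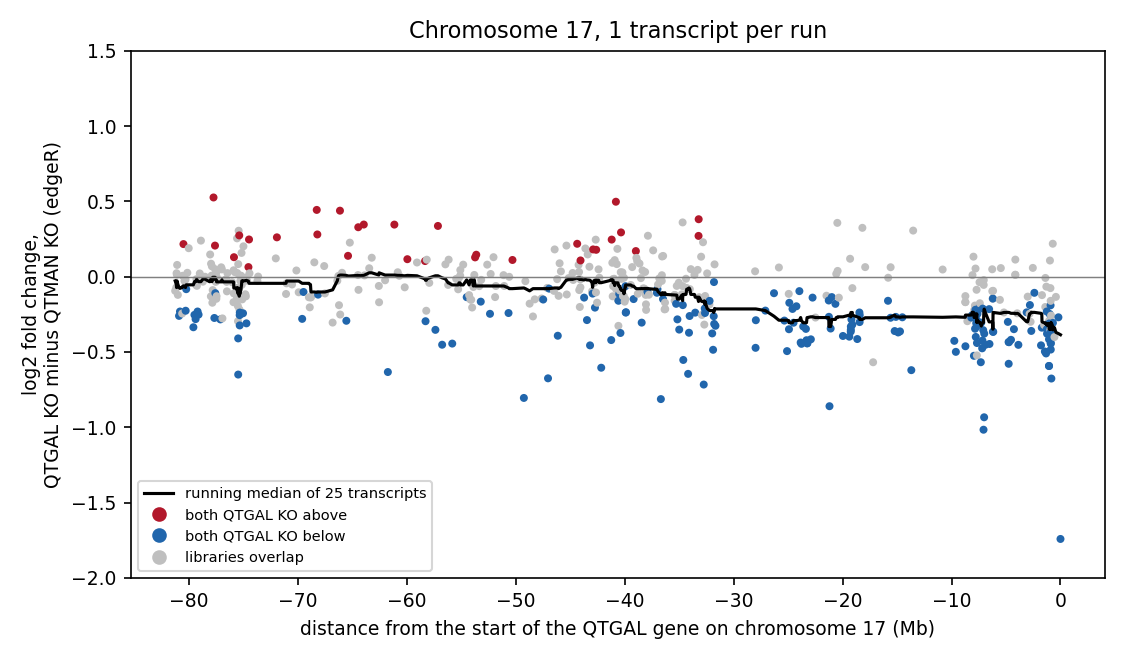
Each point is 1 transcript per run on chromosome 17, placed by its distance in Mb from the start of the QTGAL gene at the right, with the edgeR log2 fold change of QTGAL over QTMAN knockout on the vertical axis. The running median of 25 transcripts lies near 0 on the left and falls to about the -0.27 of the distal stretch towards the QTGAL gene.

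Chromosome 22 showed the opposite sign, from 1 library. Of its 174 transcripts (1 per run), 73 lay higher (42.0%) and 7 lower (4.02%) in the QTGAL-labelled libraries, against 20.7% and 16.5% of all transcripts taken 1 per run. Its medians relative to the mean of the 4 libraries were 0.10 and 0.13 in the QTGAL-labelled libraries, 0.06 in the QTMAN-labelled replicate 1 and -0.26 in the QTMAN-labelled replicate 2. SREBF2, ATF4 and XBP1 lie there; SREBF2 was at 0.38 in place of 0.59 after the centring on neighbours. Chromosome 21 separated the replicates of a genotype, with medians of -0.20 and 0.19 in the QTMAN-labelled libraries.

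**Figure D5:**
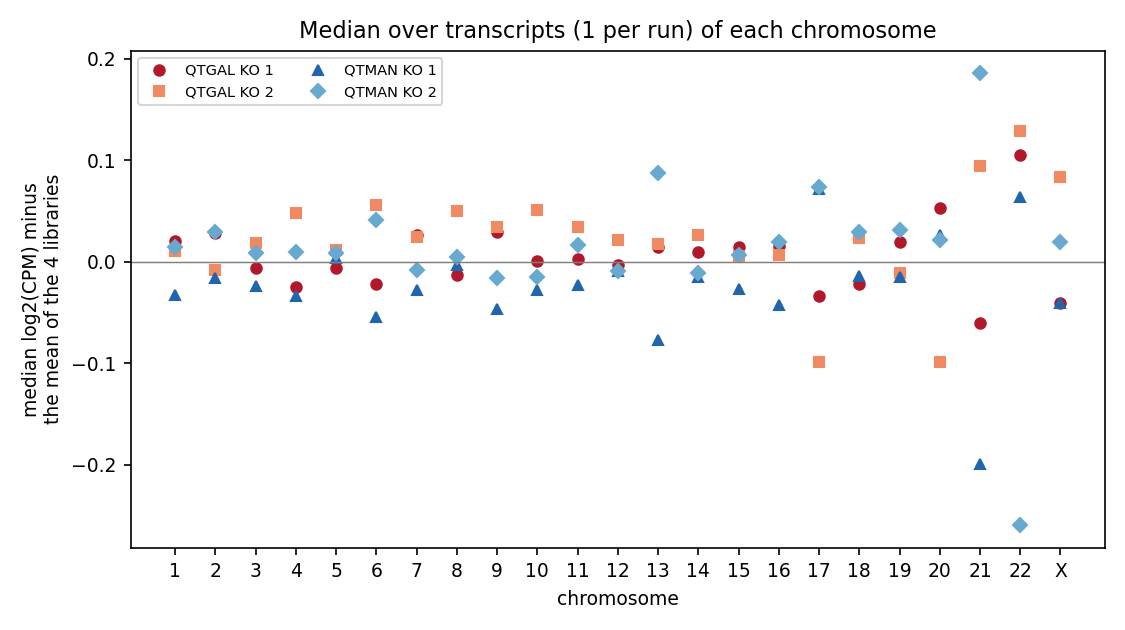
For each chromosome on the horizontal axis, the points give each library's median log2 CPM minus the mean of the 4 libraries, over 1 transcript per run. On chromosome 17 both QTGAL knockout libraries lie below both QTMAN knockout libraries, and on chromosome 22 the QTMAN knockout replicate 2 lies apart at -0.26.

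The 6 transcripts that DESeq2 called were these. MAGEH1, a member of the MAGE family on the X chromosome, had 0.13 and 0.67 CPM in the QTGAL-labelled libraries and 3.57 and 2.28 CPM in the QTMAN-labelled ones, with a DESeq2 adjusted p of 0.038 and an edgeR adjusted p of 0.37. A group of 4 transcripts with no assigned gene had DESeq2 adjusted p of 0.017. Their identifiers are consecutive, from uc060ljx.1 to uc060lka.1, and their edgeR log2 differences ran from -0.62 to -0.66. Isoforms share footprints, so the 4 are not taken as separate genes. The nearest matched gene to uc060lka.1 was NPLOC4 on chromosome 17, 14 rows away. The part of the shift on distal chromosome 17, described above, in these 4 transcripts was not tested. The transcript uc060lka.1 had 423.0 and 397.6 CPM against 606.7 and 686.2 CPM. The last, higher in the QTGAL-labelled libraries, had 11.1 and 14.6 CPM against 4.25 and 6.35 CPM and no gene was assigned to it. Its neighbour uc057mdb.1 had 9.54 and 11.9 CPM against 3.88 and 5.33 CPM.

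The labelled cell type was checked on its markers. VIM, a filament protein abundant in this line, had 361.2 and 435.3 CPM against 389.7 and 448.1 CPM, and CDH2 had 49.9 and 60.1 CPM against 50.8 and 53.1 CPM. Of the epithelial markers, KRT18 had 18.9 and 18.4 CPM against 16.2 and 22.9 CPM and KRT8 had 7.53 and 18.4 CPM against 16.8 and 21.6 CPM, while CDH1 stood at 0.54 to 1.06 CPM and KRT19 had no footprint in any of the 4 libraries. HEK293T-like markers summed to 442.0 and 550.3 CPM in the QTGAL-labelled libraries and 504.2 and 590.6 CPM in the QTMAN-labelled ones. Hepatocyte markers summed to at most 0.12 CPM, endothelial ones to 0.42 CPM and leukocyte or red cell ones to 0.95 CPM. NEFM, a neurofilament protein, differed between replicates of the same label, with 8.99 and 35.5 CPM against 30.8 and 64.2 CPM.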

How the data were processed

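Ribosome-protected footprints of 4 libraries were analysed; a QTRT1 knockout library entered only an alternative fit. The authors deposited 1 table per library, with raw footprint counts for each transcript identifier beside a length. Per the submitters' processing notes, bcl2fastq 2.19, CASAVA and STAR 2.7.0a were used with the build hg38. The annotation, counter and strand setting were not given in the sources used here. The deposited length, of unit other than a count, was read as codons including the stop. No molecular identifiers are mentioned in the labels, so precision covers reads.

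Transcripts with a length (93916 of 182398 rows) were filtered by filterByExpr, scaled by TMM (factors 0.975 to 1.02) and tested with edgeR 4.0.16 in R 4.3.3 (quasi-likelihood test, genotype as only term, Benjamini-Hochberg over 58747 transcripts). SE is the log2 fold change over the square root of F. Biological variation between libraries, as edgeR's common coefficient, was 11.7%. The test was checked on simulated data. DESeq2 1.42.0 was an alternative.

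Genes were matched by coding length and order along the tables, within 120 rows of the expected place and with at most 0.05 clusters due by chance. The expected place was interpolated between other genes of a best-scoring chain through the genes tried, of any length. Proteins of at least 1000 residues served only to check the order. The window and other settings were adjusted while watching the match rate, and keys were added for genes near transcripts with small p. Named genes were the first 12 per direction by p, at 5 CPM or more, 1 per 20 rows, besides list members; KPNA2, SUMO2, BIRC5, H3-3B, LUM and MAGEH1 were chosen after their values were seen. The members and lists were chosen with earlier results of these data known. Runs join neighbouring transcripts with at least 100 counts whose counts per codon differ by less than 2-fold, and local centring subtracts a running median of 51 runs. A relation to tyrosine and aspartate content was planned and not run, since it needs protein sequences, which were not used here. A few genes of these lists are not reported here by name.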

Additional observations from a re-analysis of the deposited data

How the results depend on the processing

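Against 0 transcripts called by edgeR with all 4 libraries, DESeq2 called 6 (1 with a gene match) and the fit with no filter called 275 (28 with a gene match); leaving out 1 library gave 11 to 481 calls (2 to 32 with a gene match), and in those fits the genotype left with 1 library is assumed to vary like the other. Calls stayed at 0 under total counts, the 5 CPM filter, all 5 libraries, 1 transcript per run and local centring. Leaving out chromosome 17 from 50 Mb on was added after the data were seen. It only dropped rows from the main fit, without a new fit, so it could not add calls and tests nothing. The cause of the calls gained was not tested. With the titles' first number as a replicate block, 0 transcripts and 0 named-gene rows were called; same-numbered libraries' deviations correlated at 0.17, and with 2 pairs the numbers are not taken as pairing. The counts of separated transcripts, 10932 higher and 10688 lower, were 5195 and 5099 at 5 CPM or more and 1660 and 1619 with 1 transcript per run, where fewer rows were tested. All 24 named genes kept their direction in every fit that held them. They were chosen because the genotypes were fully separated, so leaving out 1 library or rescaling could hardly reverse them. Their kept direction is therefore no test. With no filter 19 of them were called. The tyrosine and aspartate comparisons and their alternatives were not run. Precision at low levels is limited by counts as low as 3 footprints, for MAGEH1.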

Other observations

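The QTRT1 knockout library, which entered only the fit over all 5 libraries, is a single library with no replicate. Over the 24 named genes its level was nearer the QTGAL-labelled mean for 7 of 12 genes in each direction and nearer the QTMAN-labelled mean for 5 of 12. It lay beyond all 4 libraries in 5 genes: above them for RNF145 (8.01 CPM), MARK3 (10.9 CPM), SREBF2 (44.5 CPM) and POTEE (113.3 CPM), and below them for HLA-DPA1 (2.72 CPM). COL5A2 had 4.15 CPM in that library and ACTG1 had 1425.9 CPM, both between the genotypes. For cholesterol synthesis, HMGCS1 had 146.2 CPM there against 79.6 and 95.4 CPM in the QTGAL-labelled and 61.9 and 77.7 CPM in the QTMAN-labelled libraries.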
